A study of Mus musculus with 8 samples.

Results

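Accessible chromatin around Irf1, Irf2, Irf4 and Irf8, 4 genes that encode interferon regulatory factors, was compared in mouse pro-B cells treated with a degrader of the transcription factor EBF1 or with its solvent. The loss of EBF1 protein was not measured here. A region of the deposited tables was counted to one of these genes when that gene had the nearest protein-coding span to the region's centre, within 100 kb, among the 21900 protein-coding genes of RefSeq GRCm38.p6. This gave 54 of 54239 distinct regions tested in the line EBF1-dTAG_C (9 for Irf1, 19 for Irf2, 5 for Irf4 and 21 for Irf8). It gave 61 of 55193 in the line EBF1-dTAG_N (12 for Irf1, 21 for Irf2, 7 for Irf4 and 21 for Irf8).

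The assay was ATAC-seq, in which the transposase Tn5 cuts and tags open DNA. Abelson murine leukaemia virus (A-MuLV) had been used to transform the pro-B cells, and in every group, controls included, modified EBF1 stood in for the cell's own protein. The names of the lines give this protein a dTAG degron, through which the compound dTAG-13 directs it to degradation. The groups were EBF1-dTAG_C with 0.5 uM dTAG-13 for 6 h, EBF1-dTAG_C with the solvent DMSO for 6 h, EBF1-dTAG_N with dTAG-13 and EBF1-dTAG_N with DMSO, with 2 libraries in each and 8 in all. The sample titles place the controls at 0 h, and the treatment labels were followed. No group with unmodified EBF1 was analysed here, and whether a line is a single clone is not stated in the sources used here. The series calls the 2 libraries of a group biological replicates without saying how the cultures were kept apart.

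The libraries held 34202 to 39721 peaks after dTAG-13 and 40166 to 42139 with DMSO. The number of reads is unknown. The lowest background pileup of a list, which scales with depth, was 0.229 and 0.258 in EBF1-dTAG_C with dTAG-13, against 0.344 and 0.331 with DMSO. It was 0.348 and 0.372 in EBF1-dTAG_N with dTAG-13, against 0.408 and 0.401 with DMSO. The dTAG-13 libraries were thus shallower by this measure in both lines, and the part of depth in any peak that was missing from them was not tested. Of 10 pro-B cell markers, 9 had a peak within 1 kb in both DMSO lists of EBF1-dTAG_C (10 in EBF1-dTAG_N). No DMSO list had a peak at Cd3e and Cd8a of T cells or at Elane and Mpo of myeloid cells, while the erythroid genes Gata1, Klf1 and Hbb-bs had one in 1 or more. By the same measure as for the pro-B cell markers, peaks in both DMSO lists of a line, all 3 erythroid markers and 1 of 3 myeloid markers (Csf1r) were accessible in EBF1-dTAG_C, and 1 erythroid and 1 of 3 T cell markers (Cd4) in EBF1-dTAG_N.

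Interferon regulatory factors share a DNA-binding domain that recognises GAAA repeats. IRF1 activates interferon-responsive genes, and IRF2 binds the same elements and can oppose it. IRF4 and IRF8 act in the B lineage with the ETS factors PU.1 and SPI-B on composite ETS-IRF elements, and together they promote the passage from the pre-B cell stage to light chain rearrangement. IRF8 is also a main regulator of macrophage and dendritic cell development, and IRF4 of plasma cells. EBF1 specifies the B lineage and binds an inverted repeat with the core CCCNNGGG.

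All 4 genes lie on the plus strand of GRCm38.p6. Irf1 (gene ID 16362) spans 8.36 kb at chr11:53770014-53778374, Irf2 (16363) spans 107.7 kb at chr8:46739745-46847458, Irf4 (16364) spans 17.7 kb at chr13:30749233-30766981, and Irf8 (15900) spans 20.3 kb at chr8:120736358-120756694. Exons and UTRs were not used here, so positions are given as distances from the first annotated start site. The promoters of RefSeq GRCm38.p6, 250 bases before to 50 after a start site, are shown because each first promoter was accessible in all 8 libraries and the search for EBF1 and IRF letters ran over them. Capitals mark matches to CCCNNGGG at Irf1 and Irf8, and at Irf2 the joined matches to GGAANNGAA (ETS-IRF composite) and GAAANNGAA (interferon-stimulated response element).
Irf1 promoter, chr11:53769764-53770063, plus strand: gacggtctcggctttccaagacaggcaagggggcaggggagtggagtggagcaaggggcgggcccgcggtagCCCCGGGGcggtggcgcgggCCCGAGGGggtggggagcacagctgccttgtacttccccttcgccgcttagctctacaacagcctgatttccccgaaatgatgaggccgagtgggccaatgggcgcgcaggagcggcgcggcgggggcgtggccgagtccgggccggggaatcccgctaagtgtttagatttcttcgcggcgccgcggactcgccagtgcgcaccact
Irf2 promoter, chr8:46739495-46739794, plus strand: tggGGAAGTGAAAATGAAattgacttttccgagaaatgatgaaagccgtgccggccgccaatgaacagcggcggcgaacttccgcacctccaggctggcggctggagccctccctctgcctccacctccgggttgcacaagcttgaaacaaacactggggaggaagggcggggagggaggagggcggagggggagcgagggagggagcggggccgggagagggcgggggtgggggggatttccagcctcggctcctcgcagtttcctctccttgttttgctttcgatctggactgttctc
Irf4 promoter, chr13:30748983-30749282, plus strand: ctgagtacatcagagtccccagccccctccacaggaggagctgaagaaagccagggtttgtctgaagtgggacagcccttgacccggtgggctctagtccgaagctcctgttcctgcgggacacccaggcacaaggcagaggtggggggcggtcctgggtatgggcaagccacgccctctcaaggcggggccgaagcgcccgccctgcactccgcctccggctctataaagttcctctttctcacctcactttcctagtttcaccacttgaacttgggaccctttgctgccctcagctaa
Irf8 promoter, chr8:120736108-120736407, plus strand: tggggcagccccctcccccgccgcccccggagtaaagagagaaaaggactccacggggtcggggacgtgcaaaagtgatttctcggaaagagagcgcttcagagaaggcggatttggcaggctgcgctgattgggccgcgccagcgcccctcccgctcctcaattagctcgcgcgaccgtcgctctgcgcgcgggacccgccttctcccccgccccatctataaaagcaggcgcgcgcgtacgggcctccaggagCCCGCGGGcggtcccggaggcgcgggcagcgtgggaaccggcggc

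Both strands were searched. Irf1 had matches to CCCNNGGG at positions -178 and -158 and Irf8 at position 5 after the start site, and the pattern was met on both strands at each of these places. Irf2 had GGAANNGAA at -247 and GAAANNGAA at -241, which overlap. The Irf4 promoter held none of the 4 motifs searched, nor did the second annotated promoters of Irf1 and Irf8. Over all 32851 promoters of this length, CCCNNGGG was present in 13.7%, its longer form TCCCNNGGG in 6.56%, GAAANNGAA in 8.56% and GGAANNGAA in 8.24%. GC content was 69.3% for Irf1, 62.7% for Irf2, 61% for Irf4 and 70% for Irf8, against a median of 52.7% over all promoters.

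Within these 4 loci, the falls in EBF1-dTAG_C were all at Irf8, in 3 regions past the end of the gene. The same 3 places were among the 12 falls of EBF1-dTAG_N, of which 7 were at Irf8, 3 at Irf2, 1 at Irf1 and 1 inside Irf4. A region was called at an adjusted p under 0.05 by the authors' deposited table. By that rule 3 of the 54 regions fell in EBF1-dTAG_C (5.56%) and 0 rose, where 6.62% of all regions of the authors' deposited table fell and 0.308% rose. By edgeR's unadjusted p, 6 of the 54 were under 0.05 and lower (11.1%, against 11.6% of all regions) and 6 were under 0.05 and higher (11.1%, against 5.2% of all regions). In EBF1-dTAG_N 12 of the 61 fell (19.7%) and 12 rose (19.7%), where 18.5% of all regions of the authors' deposited table fell and 18.8% rose. The shares called at an adjusted p under 0.05 were therefore near those of all regions, and so were the medians. The share that was higher at an unadjusted p under 0.05 in EBF1-dTAG_C was above that of all regions. The median log2 fold change over the 54 regions was 0.03 against 0.09 over all regions of EBF1-dTAG_C, and over the 61 it was 0.25 against 0.17 in EBF1-dTAG_N.

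The tests of the tables differ. Behind the authors' deposited table stood 11.2 denominator degrees of freedom for EBF1-dTAG_C and 110386 for EBF1-dTAG_N, which is 2 for each of its regions. The spread of EBF1-dTAG_N thus seems to have been pooled over its regions without limit, in a way that is not stated. Its p-values cannot be set beside those of EBF1-dTAG_C. Read against the EBF1-dTAG_C degrees of freedom, 10 of the 61 regions fell and 8 rose, where 16.3% of all regions fell and 12.4% rose. The median fold of the authors' deposited table was above 0 in both lines. With folds centred on it, 4 of the 54 regions fell and 0 rose in EBF1-dTAG_C (7.39% and 0.162% of all regions). In EBF1-dTAG_N 13 of the 61 then fell and 7 rose (20.8% and 7.98% of all regions). All 12 falls of EBF1-dTAG_N were still called, but 5 of its rises were not. These were 1 at Irf1 (33.2 kb from the start site), 2 at Irf2 (49.8 and 105.3 kb), 1 at Irf4 (12.2 kb) and that of the Irf8 promoter.

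**Figure D1:**
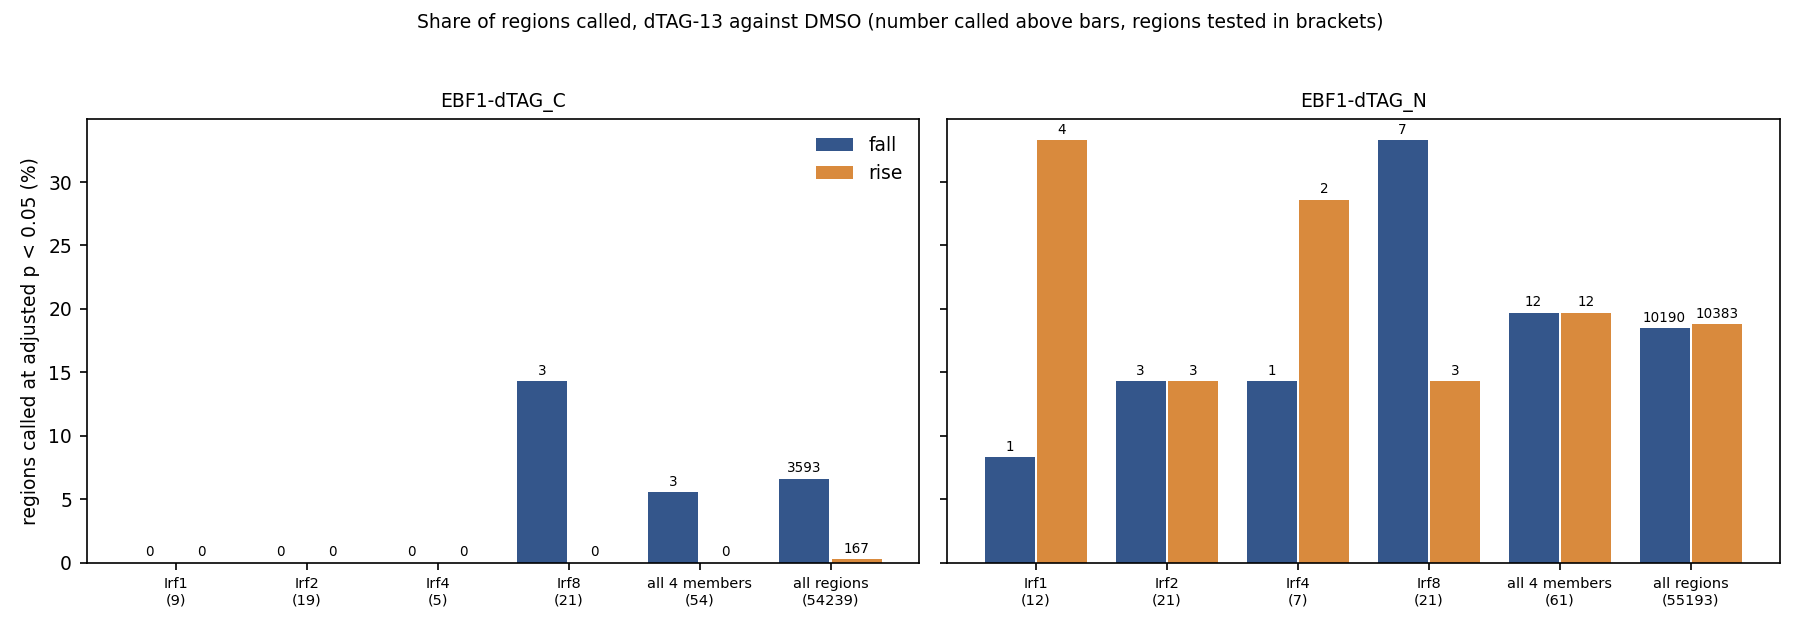
Share of regions called at an adjusted p under 0.05, in percent, for dTAG-13 against DMSO in EBF1-dTAG_C (left) and EBF1-dTAG_N (right); bars show falls and rises for each gene, for the 4 genes together and for all regions, with the number called above each bar. In EBF1-dTAG_C the 3 called regions were all at Irf8, and in EBF1-dTAG_N the 12 falls and 12 rises made shares near those of all regions.

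Irf8 had the most called falls in both lines. In EBF1-dTAG_C 3 of its 21 regions fell (14.3%, against 6.62% of all regions). In EBF1-dTAG_N 7 of 21 fell (33.3%, against 18.5% of all regions) and 3 rose (14.3%, against 18.8%). Irf8 also had the most regions of the 4 genes in EBF1-dTAG_C and, with Irf2 at 21 each, in EBF1-dTAG_N. The first of the 3 Irf8 falls of EBF1-dTAG_C lay 0.810 kb past the annotated end of the gene and 21.1 kb from the start site, at chr8:120757242-120757767. There the summit pileup, the number of reads stacked at a peak's highest point, was 13 in dTAG-13 replicate 2, with no peak in dTAG-13 replicate 1, against 46 and 56 in the DMSO libraries of EBF1-dTAG_C. In EBF1-dTAG_N it was 25 in dTAG-13 replicate 1, with no peak in replicate 2, against 96 and 97 with DMSO. In each line the single dTAG-13 peak was lower than both DMSO peaks. The authors' deposited table gave a log2 fold of -1.43 ± 0.198 in EBF1-dTAG_C, a 2.70-fold fall (adjusted p = 0.000813), where ± is an approximate standard error, the absolute fold over the square root of F. For EBF1-dTAG_N the authors' deposited table listed -1.88 ± 0.108, which is 3.69-fold lower (adjusted p = 1.79e-65, or 2.23e-07 at the EBF1-dTAG_C degrees of freedom). Its mean abundance was 5.27 log2 CPM (read counts scaled to library size) in EBF1-dTAG_C and 5.71 in EBF1-dTAG_N. This was the most abundant Irf8 region that fell in EBF1-dTAG_C.

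A smaller region stood next to it, 21.8 kb from the start site (chr8:120758021-120758319 in EBF1-dTAG_C). None of the 4 dTAG-13 lists had a peak there, whereas the DMSO libraries reached summit pileups of 31 and 37 (EBF1-dTAG_C) and of 34 and 47 (EBF1-dTAG_N). The summits of the 4 DMSO peaks lay within 46 bp of each other. The log2 fold of the authors' deposited table was -2.40 ± 0.390 in EBF1-dTAG_C (5.28-fold lower, adjusted p = 0.00248). For EBF1-dTAG_N the authors' deposited table gave -2.65 ± 0.237 (6.27-fold lower, adjusted p = 1.77e-27, or 7.23e-06 at the EBF1-dTAG_C degrees of freedom).

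The third lay farther out, 63.7 kb from the start site (chr8:120799870-120800163 in EBF1-dTAG_C). It had no peak in any dTAG-13 list. With DMSO the summit pileup was 24 and 34 in EBF1-dTAG_C. In EBF1-dTAG_N it was 23 in DMSO replicate 2, and DMSO replicate 1 had no peak. The fall was 9.57-fold in EBF1-dTAG_C by the authors' deposited table (log2 fold -3.26 ± 0.441, 2.41 log2 CPM, adjusted p = 0.00071). It was 4.49-fold in EBF1-dTAG_N by the authors' deposited table (-2.17 ± 0.454, 1.71 log2 CPM, adjusted p = 1.37e-05, or 0.00415 at the EBF1-dTAG_C degrees of freedom). Its abundance was the lowest of the 3 and its approximate standard errors were the largest. The nearest protein-coding neighbour past Irf8 is Foxf1, which begins 327.7 kb after the end of Irf8.

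Inside Irf8 the pattern was less uniform. A region 11.1 kb from the start site (chr8:120747282-120747679), which was chosen for description after its values were seen, had a peak in all 8 lists. Its summit pileup was 37 and 33 with dTAG-13 against 95 and 132 with DMSO in EBF1-dTAG_C, and 69 and 69 with dTAG-13 against 178 and 155 with DMSO in EBF1-dTAG_N. Divided by each library's lowest background, the heights were 161 and 128 with dTAG-13 against 276 and 399 with DMSO in EBF1-dTAG_C. In EBF1-dTAG_N they were 198 and 185 with dTAG-13 against 436 and 387 with DMSO. The groups did not overlap in either line by either measure. How many of all regions separate in this way was not counted. The log2 fold of this region was -1.02 ± 0.283 in EBF1-dTAG_C by the authors' deposited table (adjusted p = 0.0562, and 0.0354 after centring), so it missed the threshold there. By the authors' deposited table it fell in EBF1-dTAG_N, with -0.91 ± 0.109 (adjusted p = 1.31e-15, or 7.5e-05 at the EBF1-dTAG_C degrees of freedom). The neighbouring region 9.99 kb from the start site had a log2 fold of -0.24 in EBF1-dTAG_C and 0.04 in EBF1-dTAG_N by the authors' deposited table and was called in neither.

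A region 4.37 kb from the start site was tested in EBF1-dTAG_N alone (chr8:120740564-120740884). Its peak was present only in the DMSO libraries of EBF1-dTAG_N among the 8 lists, with summit pileups of 32 and 44. By the authors' deposited table it was 4.16-fold lower after dTAG-13 (log2 fold -2.06 ± 0.289, 2.88 log2 CPM, adjusted p = 1.73e-11, or 0.000263 at the EBF1-dTAG_C degrees of freedom). Another region with a peak in the EBF1-dTAG_N DMSO libraries alone, 10.2 kb before the start site, had summit pileups of 24 and 37. Its log2 fold was -0.74 ± 0.187 by the authors' deposited table (adjusted p = 0.000378). The region within 1 kb of it, 11.0 kb before the start site, was the most abundant of the locus, at 6.97 log2 CPM in EBF1-dTAG_C and 6.79 in EBF1-dTAG_N. There the summit pileup was 122 and 121 with dTAG-13 against 181 and 208 with DMSO in EBF1-dTAG_C, and 105 and 143 with dTAG-13 against 179 and 200 with DMSO in EBF1-dTAG_N. Divided by each library's lowest background, these heights were 532 and 469 with dTAG-13 against 526 and 629 with DMSO in EBF1-dTAG_C, where the groups overlapped. They were 302 and 384 with dTAG-13 against 438 and 499 with DMSO in EBF1-dTAG_N, where they did not. Here too the share of all regions that separate was not counted. The log2 fold was small, -0.32 ± 0.124 in EBF1-dTAG_C (adjusted p = 0.207) and -0.19 ± 0.072 in EBF1-dTAG_N (adjusted p = 0.0212) by the authors' deposited table. The EBF1-dTAG_N call was lost at the EBF1-dTAG_C degrees of freedom (adjusted p = 0.0635).

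The Irf8 promoter region, which contains all 300 bases printed above, did not follow these falls. Its summit pileup was 44 and 41 with dTAG-13 against 56 and 64 with DMSO in EBF1-dTAG_C. In EBF1-dTAG_N it was 45 and 61 with dTAG-13 against 59 and 35 with DMSO, so that the groups overlapped. Divided by the lowest background of each library, the heights overlapped in both lines. The log2 fold by the authors' deposited table was -0.02 ± 0.164 in EBF1-dTAG_C (5.41 log2 CPM, adjusted p = 0.981). For EBF1-dTAG_N the authors' deposited table gave a rise of 0.30 ± 0.112 (5.35 log2 CPM, adjusted p = 0.0205), which was lost after centring (p = 0.413) and at the EBF1-dTAG_C degrees of freedom (p = 0.0623). The second annotated start site of Irf8 had no region over its promoter in either table.

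The other 2 rises at Irf8 in EBF1-dTAG_N were 20.9 kb before and 28.4 kb after the start site. The first had summit pileups of 115 and 123 with dTAG-13 against 106 and 69 with DMSO in EBF1-dTAG_N, and 58 and 32 with dTAG-13 against 38 and 46 with DMSO in EBF1-dTAG_C. Its log2 fold was 0.74 ± 0.0990 in EBF1-dTAG_N (adjusted p = 1.02e-12) and 0.48 ± 0.326 in EBF1-dTAG_C (adjusted p = 0.539) by the authors' deposited table. The second had 0.66 ± 0.169 in EBF1-dTAG_N (adjusted p = 0.000537) and 0.60 ± 0.248 in EBF1-dTAG_C (adjusted p = 0.238) by the authors' deposited table. Of the Irf8 regions that passed no threshold, the 18 in EBF1-dTAG_C had log2 folds of -1.02 to 0.60 and the 11 in EBF1-dTAG_N of -0.28 to 1.60 by the authors' deposited table.

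**Figure D2:**
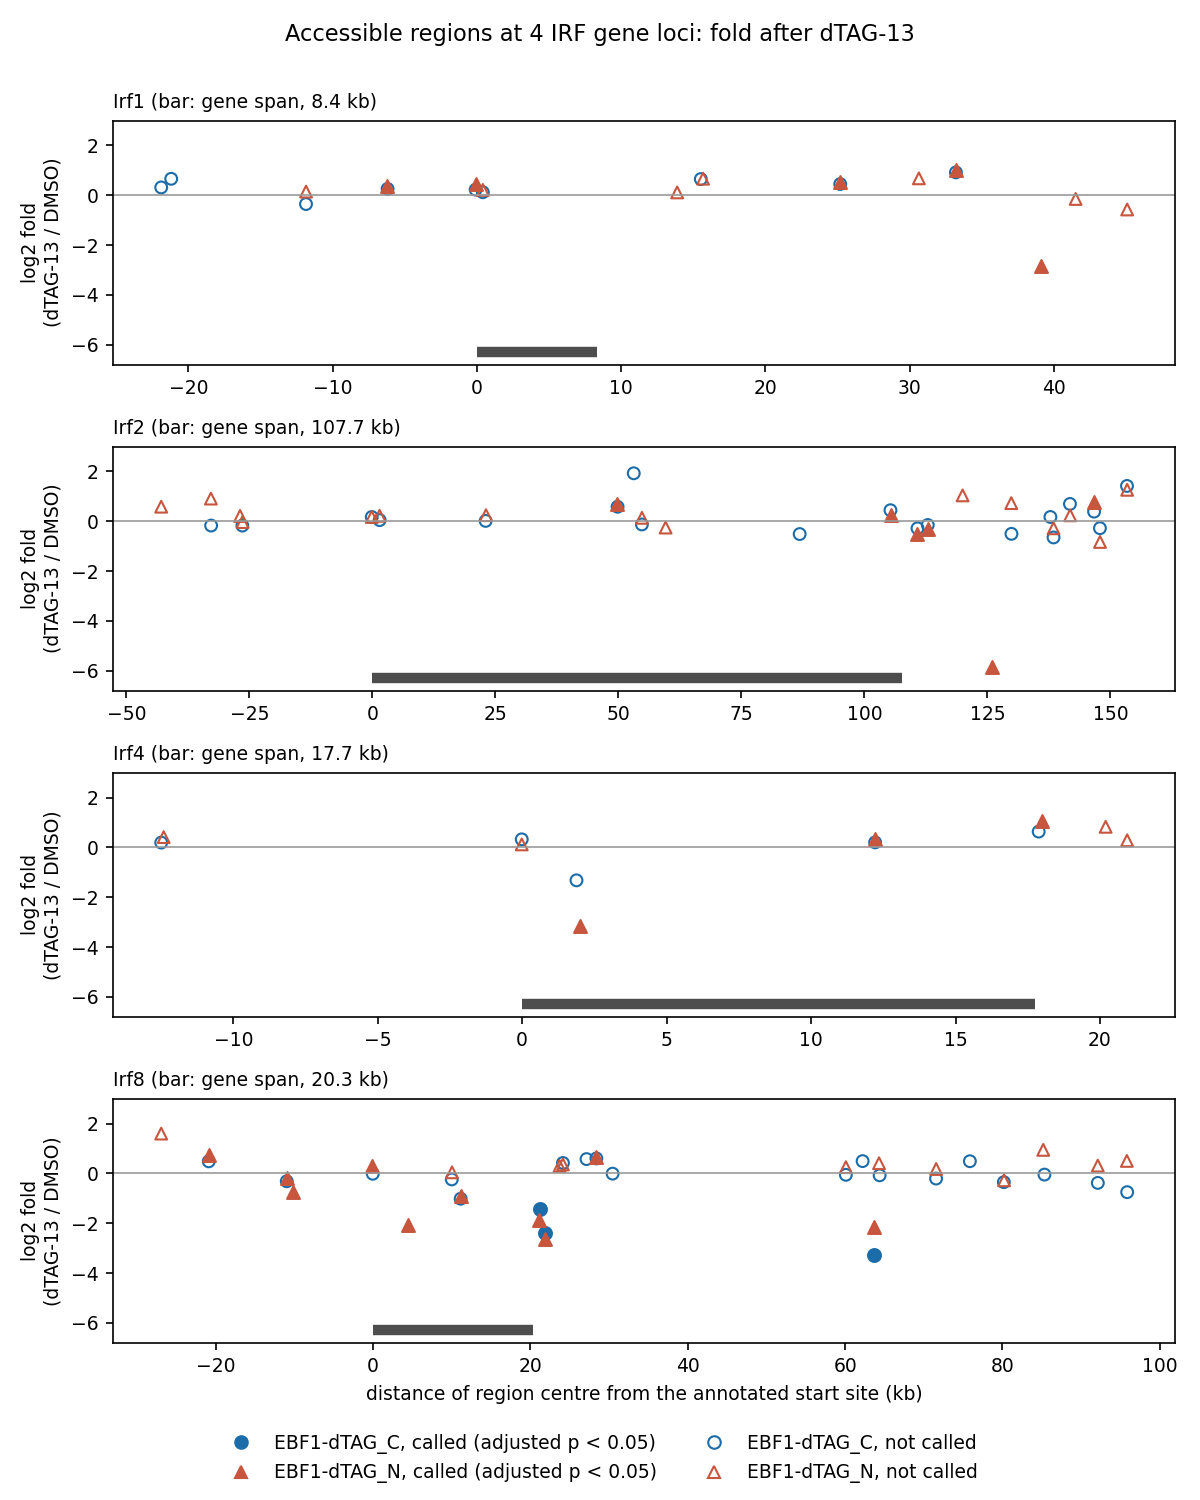
Log2 fold (dTAG-13 over DMSO) of each region against the distance of its centre from the first annotated start site in kb, for Irf1, Irf2, Irf4 and Irf8; circles are EBF1-dTAG_C, triangles EBF1-dTAG_N, filled symbols were called at an adjusted p under 0.05, and the grey bar is the gene. At Irf8 the filled circles lie at 21.1, 21.8 and 63.7 kb beside filled triangles, and at Irf4 the lowest triangle, at -3.16, lies inside the gene.

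Irf4 had 1 region that fell, 1.98 kb inside the gene, and it was called in EBF1-dTAG_N alone. The region spanned 678 bp in the EBF1-dTAG_N table (chr13:30750880-30751557) and only 159 bp in the EBF1-dTAG_C table (chr13:30751034-30751192). In EBF1-dTAG_N neither dTAG-13 list had a peak, and the DMSO summit pileups were 60 and 49. In EBF1-dTAG_C neither dTAG-13 list nor DMSO replicate 1 had a peak, and DMSO replicate 2 had a summit pileup of 18. The summits lay at different places, at positions 30751428 and 30751427 in EBF1-dTAG_N, outside the region of the EBF1-dTAG_C table, and at 30751085 in EBF1-dTAG_C, so these heights are not of the same site. By the authors' deposited table the region was 8.92-fold lower in EBF1-dTAG_N (log2 fold -3.16 ± 0.160, 4.94 log2 CPM, adjusted p = 1.67e-84, or 8.24e-08 at the EBF1-dTAG_C degrees of freedom). In EBF1-dTAG_C the authors' deposited table gave -1.32 ± 0.416 (2.45 log2 CPM, adjusted p = 0.0959), with the same sign but short of the threshold. Whether the lines differ there was not tested, since the compared intervals and abundances differ.

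Elsewhere at Irf4 the deposited folds were positive in both lines, although the promoter fold of EBF1-dTAG_N turned to -0.05 after centring. The end of the gene carried a region 18.0 kb from the start site in EBF1-dTAG_N (chr13:30766933-30767492). Its summit pileup was 25 and 29 with dTAG-13 against 15 and 12 with DMSO in EBF1-dTAG_N, and 35 and 23 with dTAG-13 against 20 and 17 with DMSO in EBF1-dTAG_C. Both dTAG-13 libraries were above both DMSO libraries in each line. The share of all regions that separate in this way was not counted, and the part of depth was not tested. The authors' deposited table gave a 2.09-fold rise in EBF1-dTAG_N (log2 fold 1.06 ± 0.207, 3.47 log2 CPM, adjusted p = 2.32e-06, or 0.0026 at the EBF1-dTAG_C degrees of freedom). In EBF1-dTAG_C the authors' deposited table gave 0.63 ± 0.267 (3.64 log2 CPM, adjusted p = 0.251), which was not called. It was the only rise with an absolute log2 fold of at least 1 among the 61 regions of EBF1-dTAG_N. A region 12.2 kb inside the gene had a log2 fold of 0.34 in EBF1-dTAG_N (adjusted p = 0.0386, or 0.0878 at the EBF1-dTAG_C degrees of freedom) and of 0.20 in EBF1-dTAG_C (adjusted p = 0.873) by the authors' deposited table.

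The Irf4 promoter was accessible in all 8 libraries. Its summit pileup was 87 and 75 with dTAG-13 against 81 and 80 with DMSO in EBF1-dTAG_C, and 65 and 96 with dTAG-13 against 113 and 106 with DMSO in EBF1-dTAG_N. With each height divided by its library's lowest background, EBF1-dTAG_C had 380 and 291 with dTAG-13 against 235 and 242 with DMSO. EBF1-dTAG_N then had 187 and 258 with dTAG-13 against 277 and 265 with DMSO. The Irf4 promoter was called in neither line, with log2 folds by the authors' deposited table of 0.32 ± 0.158 in EBF1-dTAG_C (5.52 log2 CPM, adjusted p = 0.348) and 0.12 ± 0.102 in EBF1-dTAG_N (5.66 log2 CPM, adjusted p = 0.375). Upstream, a region 12.4 kb before the start site in EBF1-dTAG_N had 0.41 (adjusted p = 0.0871), and 2 regions tested in EBF1-dTAG_N alone, 20.2 and 20.9 kb after it, had 0.82 and 0.28 by the authors' deposited table. None of these 3 was called.

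**Figure D3:**
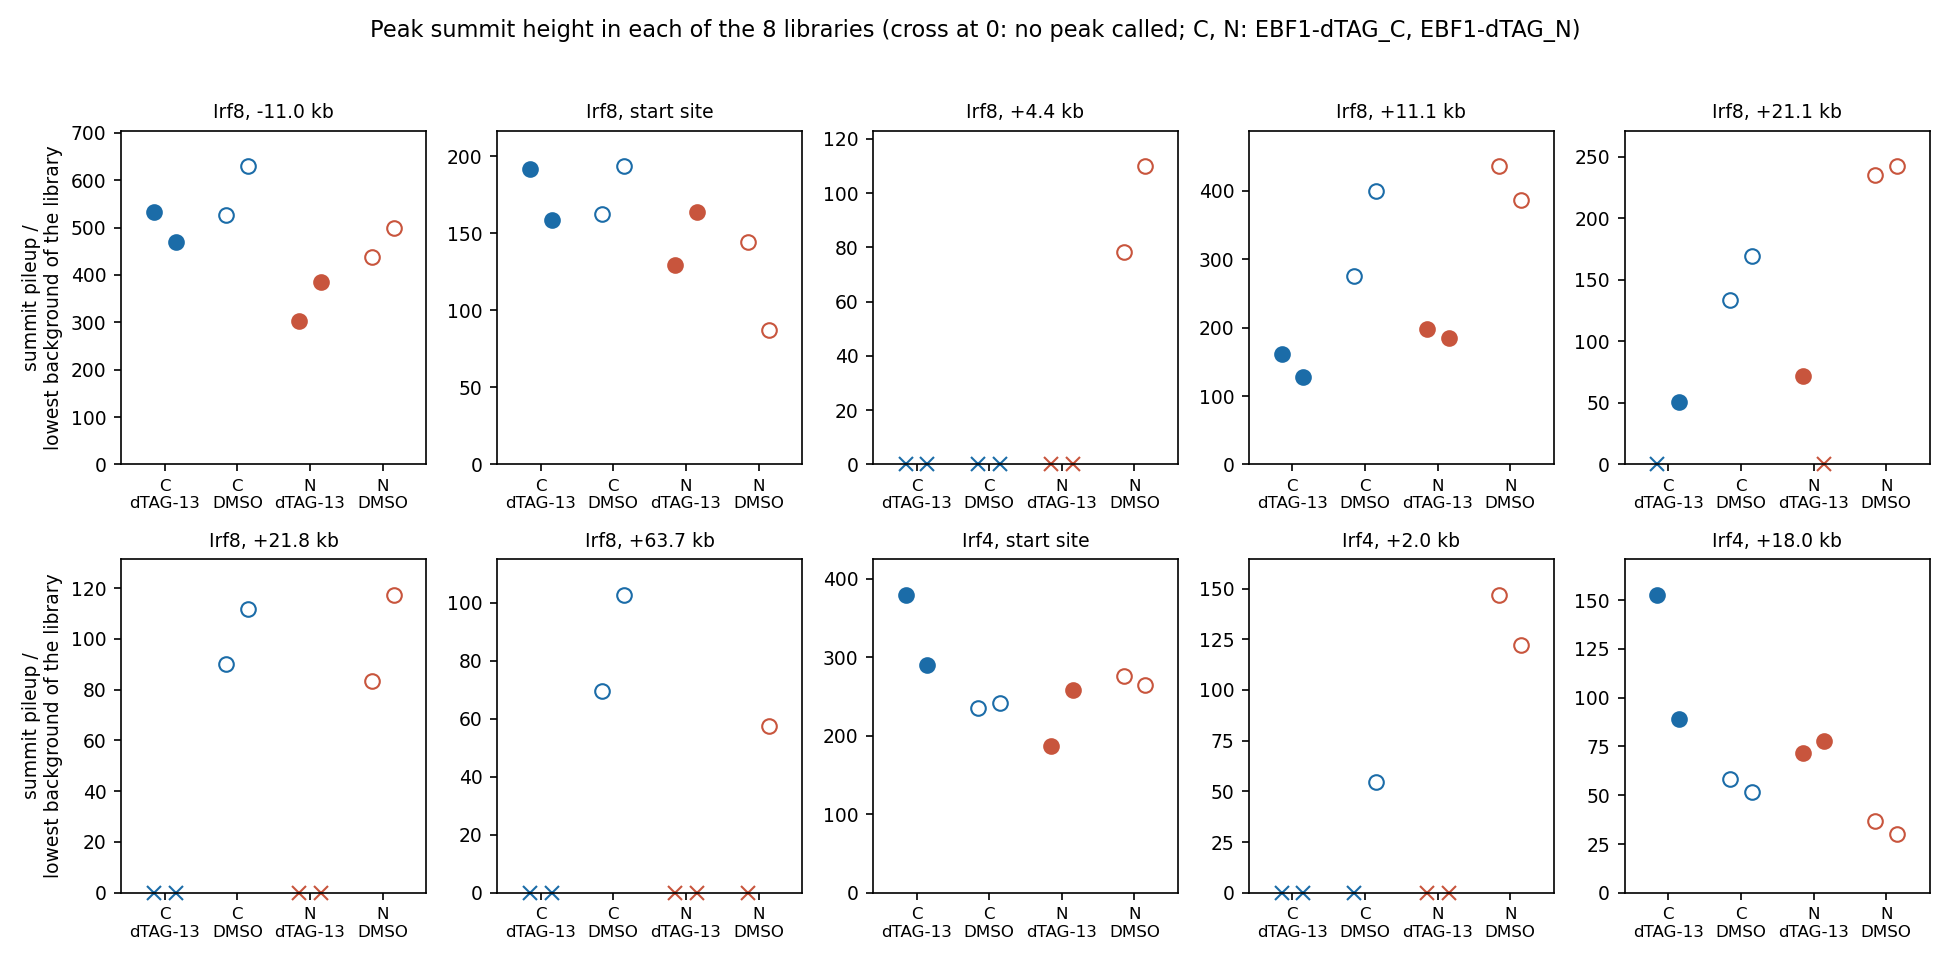
Height of the peak summit in each of the 8 libraries, as summit pileup divided by the lowest background pileup of that library, at 7 Irf8 and 3 Irf4 regions; filled points are dTAG-13, open points DMSO, and a cross at 0 marks a library with no called peak. At the Irf8 region 21.8 kb from the start site all 4 dTAG-13 libraries lack a peak and all 4 DMSO libraries have one, whereas at the Irf8 start site the dTAG-13 and DMSO points overlap in both lines.

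Irf1, the activator of interferon-responsive genes, showed small positive folds at its main regions, and none of these was called in EBF1-dTAG_C. In EBF1-dTAG_N 4 of its 12 regions rose (33.3%, against 18.8% of all regions) and 1 fell (8.33%, against 18.5%). The most abundant region lay 6.19 kb before the start site (chr11:53763439-53764214 in EBF1-dTAG_C) and covers the microRNA gene Mir7671. Its summit pileup was 51 and 72 with dTAG-13 against 98 and 54 with DMSO in EBF1-dTAG_C, and 91 and 113 with dTAG-13 against 105 and 106 with DMSO in EBF1-dTAG_N. The groups overlapped in both lines. The log2 fold by the authors' deposited table was 0.26 ± 0.117 in EBF1-dTAG_C (6.85 log2 CPM, adjusted p = 0.304). The authors' deposited table called it higher in EBF1-dTAG_N, with 0.39 ± 0.0683 (6.95 log2 CPM, adjusted p = 1.66e-07, or 0.0014 at the EBF1-dTAG_C degrees of freedom). After centring, the EBF1-dTAG_N log2 fold was 0.22.

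The region over the first Irf1 promoter had summit pileups of 66 and 107 with dTAG-13 against 127 and 93 with DMSO in EBF1-dTAG_C, and of 88 and 107 with dTAG-13 against 104 and 101 with DMSO in EBF1-dTAG_N. By the authors' deposited table its log2 fold was 0.23 ± 0.140 in EBF1-dTAG_C (6.26 log2 CPM, adjusted p = 0.492). It rose in EBF1-dTAG_N by the authors' deposited table, by 0.47 ± 0.0898 on the log2 scale (6.06 log2 CPM, adjusted p = 1.56e-06, or 0.00236 at the EBF1-dTAG_C degrees of freedom). After centring this rise was 0.30. The single-library summit heights of the region overlapped between groups in both lines. At the second start site, where the region's centre lay 0.414 kb from the first start site, the summit pileup was 25 and 18 with dTAG-13 against 49 and 39 with DMSO in EBF1-dTAG_C, and 35 and 22 with dTAG-13 against 41 and 41 with DMSO in EBF1-dTAG_N. The fold of the whole region there was positive and not called, 0.12 ± 0.160 in EBF1-dTAG_C (5.39 log2 CPM, adjusted p = 0.8) and 0.22 ± 0.119 in EBF1-dTAG_N (5.16 log2 CPM, adjusted p = 0.143) by the authors' deposited table. Divided by the lowest background of each library, the heights were 109 and 69.8 with dTAG-13 against 142 and 118 with DMSO in EBF1-dTAG_C. They were 101 and 59.1 with dTAG-13 against 100.4 and 102 with DMSO in EBF1-dTAG_N, where the groups overlapped.

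Past the gene, Irf1 regions lay inside or beside the long non-coding RNA gene Gm12216. A region 25.2 kb from the start site had summit pileups of 115 and 119 with dTAG-13 against 76 and 110 with DMSO in EBF1-dTAG_N, and 43 and 64 with dTAG-13 against 49 and 58 with DMSO in EBF1-dTAG_C. With each height divided by its library's lowest background, EBF1-dTAG_N had 331 and 320 with dTAG-13 against 186 and 275 with DMSO. EBF1-dTAG_C then had 188 and 248 with dTAG-13 against 142 and 175 with DMSO. The log2 fold of this region was 0.52 ± 0.0741 in EBF1-dTAG_N (adjusted p = 3.87e-11) and 0.45 ± 0.126 in EBF1-dTAG_C (adjusted p = 0.0579, the lowest of the Irf1 regions in that line) by the authors' deposited table. A weak region 33.2 kb from the start site had peaks of 15 and 10 with dTAG-13 and none with DMSO in EBF1-dTAG_N, but 10 and 5 with dTAG-13 against 5 and 10 with DMSO in EBF1-dTAG_C. Its log2 fold was 0.99 in EBF1-dTAG_N (adjusted p = 0.0426, or 0.0929 at the EBF1-dTAG_C degrees of freedom) and 0.92 in EBF1-dTAG_C (adjusted p = 0.436) by the authors' deposited table. The single fall at Irf1 was 39.1 kb from the start site and was tested in EBF1-dTAG_N alone (chr11:53808995-53809213). Its only peak among the 8 lists, with a summit pileup of 13, was in DMSO replicate 1 of EBF1-dTAG_N, and the authors' deposited table gave a log2 fold of -2.82 ± 0.741 at 0.83 log2 CPM (7.08-fold lower, adjusted p = 0.00072, or 0.0146 at the EBF1-dTAG_C degrees of freedom). The log2 folds of the 9 Irf1 regions of EBF1-dTAG_C, none of them called, lay between -0.35 and 0.92, and those of the 7 uncalled regions of EBF1-dTAG_N between -0.57 and 0.68 by the authors' deposited table.

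Irf2, which binds the same elements as IRF1, had no called region in EBF1-dTAG_C, where its 19 log2 folds ran from -0.65 to 1.93 by the authors' deposited table. Its promoter region had summit pileups of 62 and 70 with dTAG-13 against 80 and 70 with DMSO in EBF1-dTAG_C, and of 61 and 83 with dTAG-13 against 84 and 93 with DMSO in EBF1-dTAG_N. With each height divided by its library's lowest background, EBF1-dTAG_C had 271 and 271 with dTAG-13 against 233 and 212 with DMSO. EBF1-dTAG_N then had 175 and 223 with dTAG-13 against 206 and 232 with DMSO. The promoter region was not called, with 0.17 ± 0.131 in EBF1-dTAG_C (6.17 log2 CPM, adjusted p = 0.6) and 0.17 ± 0.0893 in EBF1-dTAG_N (6.07 log2 CPM, adjusted p = 0.113) by the authors' deposited table. This region overlaps the end of the long non-coding RNA gene Gm16675, so its signal belongs to both annotations.

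The most abundant Irf2 region of EBF1-dTAG_N lay 110.8 kb from the start site, past the end of the gene (chr8:46850090-46850950). There the summit pileup was 64 and 83 with dTAG-13 against 127 and 127 with DMSO in EBF1-dTAG_N. In EBF1-dTAG_C it was 45 and 28 with dTAG-13 against 41 and 55 with DMSO. The DMSO summits of both lines lay at positions 46850301 to 46850308 and the dTAG-13 summits at 46850699 to 46850708. These heights are therefore not of the same site. The whole region fell 1.41-fold in EBF1-dTAG_N by the authors' deposited table (log2 fold -0.49 ± 0.0747, 6.67 log2 CPM, adjusted p = 4.63e-10, or 0.000447 at the EBF1-dTAG_C degrees of freedom). In EBF1-dTAG_C the authors' deposited table gave -0.28 ± 0.271 (5.83 log2 CPM, adjusted p = 0.704). The region after it, 112.9 kb from the start site, had 71 and 71 with dTAG-13 against 138 and 111 with DMSO in EBF1-dTAG_N. Divided by each library's lowest background, these were 204 and 191 against 338 and 277. In EBF1-dTAG_C the summit pileup was 37 and 32 with dTAG-13 against 36 and 57 with DMSO, where the groups overlapped. The authors' deposited table gave this region a log2 fold of -0.31 ± 0.0965 in EBF1-dTAG_N (adjusted p = 0.00512) and -0.15 ± 0.247 in EBF1-dTAG_C (adjusted p = 0.847).

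The lowest fold of all 4 loci belonged to a barely detected Irf2 region 125.8 kb from the start site, tested in EBF1-dTAG_N alone (chr8:46865497-46865646). Its only peak, of 9 reads at the summit, was in DMSO replicate 2 of EBF1-dTAG_N. The authors' deposited table gave -5.85 ± 2.37 at -0.51 log2 CPM (57.5-fold lower, adjusted p = 0.0387), a call that was lost at the EBF1-dTAG_C degrees of freedom (p = 0.0879). The 3 Irf2 rises in EBF1-dTAG_N, at 49.8, 105.3 and 146.7 kb from the start site, had log2 folds of 0.68, 0.25 and 0.77 by the authors' deposited table (adjusted p = 0.00906, 0.0477 and 4.28e-05). Among these calls, that at 105.3 kb was lost at the EBF1-dTAG_C degrees of freedom (adjusted p = 0.0991), and those at 49.8 and 105.3 kb were lost after centring. Both of the nearer regions, at 49.8 and 105.3 kb, lie inside the gene. The corresponding EBF1-dTAG_C values of 0.58, 0.44 and 0.39 by the authors' deposited table were not called (adjusted p = 0.39, 0.221 and 0.624). The other 15 Irf2 regions of EBF1-dTAG_N had log2 folds of -0.83 to 1.26 by the authors' deposited table.

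By position, the 5 promoter regions of each table had positive or near-zero folds. None was called in EBF1-dTAG_C, where their log2 folds were -0.02 to 0.32 by the authors' deposited table, and 2 rose in EBF1-dTAG_N, where they were 0.12 to 0.47. Over all genes with a promoter in the RefSeq table, 0.987% of promoter regions fell and 0.0685% rose in EBF1-dTAG_C, and 3.62% fell and 32.5% rose in EBF1-dTAG_N. The 3 falls of EBF1-dTAG_C were among 29 regions past a gene's end, where 6.7% of all such regions fell. In EBF1-dTAG_N the 12 falls were 7 of 34 past a gene's end (19.1% of all such regions), 3 of 11 within a gene (21.9%) and 2 of 11 before a start site (20% of all such regions).

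A lost peak, present in both DMSO lists of a line and in neither dTAG-13 list, was found at 5 of the 54 regions in EBF1-dTAG_C (9.26%; 2 at Irf2 and 3 at Irf8), where 8.46% of all regions had this pattern. The reverse pattern occurred at 0 of the 54 (1.38% of all regions). In EBF1-dTAG_N a lost peak was found at 7 of the 61 (11.5%; 2 at Irf1, 1 at Irf2, 1 at Irf4 and 3 at Irf8), where 10.3% of all regions had it, and the reverse at 4 of the 61 (3.53% of all regions). Not every region with a lost peak was called. In EBF1-dTAG_C the 2 at Irf2 (log2 folds -0.65 and -0.28) and the Irf8 region at 95.9 kb (-0.75) were not. In EBF1-dTAG_N the 2 at Irf1 (0.66 and -0.57) and that at Irf2 (-0.83) were not. The remaining regions with a lost peak were called falls by the authors' deposited table. A lost peak was counted at 10 regions of EBF1-dTAG_C without its DMSO replicate 1, and at 13 of EBF1-dTAG_N without its DMSO replicate 2, where 1 DMSO list then sufficed. Peaks in all 8 lists marked 22 regions of each table, and peaks in at most 3 lists marked 17 regions of EBF1-dTAG_C and 25 of EBF1-dTAG_N.

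Across the lines, 45 regions of each table overlapped a region of the other by at least 1 bp. Of these pairs 33 had the same sign, 12 negative and 21 positive in both. The other 12 were negative in EBF1-dTAG_C and positive in EBF1-dTAG_N, and none had the opposite pattern. The median of EBF1-dTAG_N minus EBF1-dTAG_C was 0.14 on the log2 scale over the pairs, while the medians of all regions differ by 0.08. The 3 Irf8 regions past the gene's end and the Irf8 region at 11.1 kb, together with the Irf4 region within the gene, were the 5 pairs with a log2 fold under -0.9 in both lines. This cut was not among the planned settings. The Irf8 region at 11.1 kb, at -0.91 in EBF1-dTAG_N, would not pass the planned absolute log2 fold of at least 1. When an overlap of at least 50% of both regions was asked for, 41 pairs were left, and the Irf4 pair, 159 bp against 678 bp, was not among them. The 9 regions found in EBF1-dTAG_C alone had abundances of 0.11 to 2.99 log2 CPM, and none was called. The 16 found in EBF1-dTAG_N alone had -0.51 to 3.85 log2 CPM, and 4 of them fell. Whether a fold differed between the lines was not tested for any pair.

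**Figure D4:**
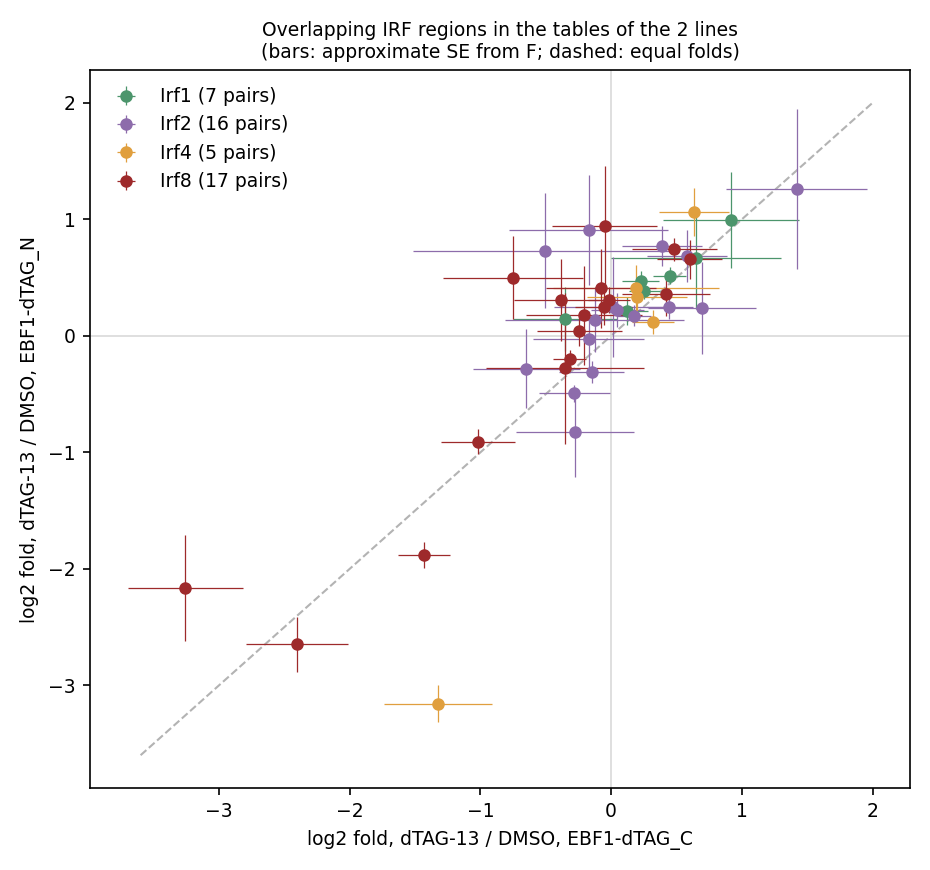
Log2 fold (dTAG-13 over DMSO) of the 45 overlapping regions, EBF1-dTAG_C on the horizontal and EBF1-dTAG_N on the vertical axis, coloured by gene; bars are approximate standard errors from F and the dashed line marks equal folds. Most pairs cluster near 0, 4 Irf8 pairs lie under -0.9 in both lines, and the Irf4 pair at -1.32 and -3.16 lies below the line of equal folds.

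The same regions were set beside other genes of the IRF network by counting genes with a called region by the authors' deposited tables. Of all 14318 genes with a region in EBF1-dTAG_C, 16.5% had at least 1 fall and 1.01% at least 1 rise. In EBF1-dTAG_N these shares were 34.4% and 41.4% of 14125 genes. Of the 4 IRF genes described here, 1 had a fall in EBF1-dTAG_C and all 4 had a fall and a rise in EBF1-dTAG_N. A gene with many regions has more chances of a call, and these genes had 5 to 21 regions in a table, where the median over all genes was 2. The counts of genes are not corrected for this.

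Among Irf3, Irf5, Irf7 and Irf9, other genes of the IRF family, 1 of the 3 with regions in EBF1-dTAG_C had a fall. This was Irf5, a mediator of Toll-like receptor signalling, whose region within the gene fell 2.48-fold in EBF1-dTAG_C (adjusted p = 0.033) and 2.11-fold in EBF1-dTAG_N (adjusted p = 2.69e-05) by the authors' deposited table. In EBF1-dTAG_N 2 of 4 had a fall (Irf5 and Irf7) and 1 a rise (Irf9). By region, 1 of 10 fell in EBF1-dTAG_C, and 2 of 11 fell and 1 rose in EBF1-dTAG_N. Over all regions, 6.62% fell in EBF1-dTAG_C, and 18.5% fell and 18.8% rose in EBF1-dTAG_N. Irf3 had no region in EBF1-dTAG_C.

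Of 7 genes for partners that bind IRF proteins, 3 had a fall in EBF1-dTAG_C, none had a rise, and 5 had a fall and 4 a rise in EBF1-dTAG_N. By region, 5 of 54 fell in EBF1-dTAG_C (9.26%) and 14 of 53 fell (26.4%) and 19 rose (35.8%) in EBF1-dTAG_N. The shares over all regions were 6.62%, 18.5% and 18.8%. The region named for a gene is its best-ranked one. Near Batf, whose product binds AP-1 and IRF composite elements with IRF4 or IRF8, a region 7046 bp outside the gene was 4.30-fold lower in EBF1-dTAG_C (adjusted p = 0.00371) and 6.64-fold lower in EBF1-dTAG_N (adjusted p = 2.18e-79) by the authors' deposited table. Near the corepressor gene Irf2bp2, 11253 bp outside it, a region was 5.83-fold lower in EBF1-dTAG_C (adjusted p = 0.000364) and 6.82-fold lower in EBF1-dTAG_N (adjusted p = 2.52e-66) by the authors' deposited table. For Irf2bpl, a relative of it, a region 50598 bp outside the gene was 5.92-fold lower in EBF1-dTAG_C (adjusted p = 0.000148) and 5.50-fold lower in EBF1-dTAG_N (adjusted p = 1.85e-39) by the authors' deposited table. Rises accompanied these falls in EBF1-dTAG_N, where Irf2bp2 had 7 falls and 8 rises among 21 regions and Irf2bpl 2 falls and 8 rises among 15. For Spi1 (encoding PU.1) and Spib (encoding SPI-B), the best-ranked regions had log2 folds of -0.57 and -0.33 in EBF1-dTAG_C by the authors' deposited table. Neither was called (adjusted p = 0.101 and 0.272). In EBF1-dTAG_N the authors' deposited table gave -1.15 and -0.62, both called (adjusted p = 1.27e-15 and 8.71e-08). In that line Spi1 had 1 fall and 2 rises among 5 regions, and Spib 1 fall and 0 rises among 2.

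Of 10 genes for interferon receptors and their signalling, 4 had a fall and 1 a rise in EBF1-dTAG_C, and 7 had a fall and 6 a rise in EBF1-dTAG_N. By region, 5 of 70 fell in EBF1-dTAG_C (7.14%), and 11 of 75 fell (14.7%) and 18 rose (24%) in EBF1-dTAG_N. The same shares over all regions were 6.62%, 18.5% and 18.8%. Near Ifngr2, an interferon gamma receptor gene, a region 8517 bp outside the gene was 2.58-fold lower for EBF1-dTAG_C (adjusted p = 0.000115) and 3.20-fold lower in EBF1-dTAG_N (adjusted p = 4.81e-61) by the authors' deposited table. Inside the kinase gene Jak2 a region was 12.2-fold lower for EBF1-dTAG_C (adjusted p = 0.016) and 23.8-fold lower in EBF1-dTAG_N (adjusted p = 1.12e-15) by the authors' deposited table. The single rise in EBF1-dTAG_C was at Ifnar2, a type I interferon receptor gene (log2 fold 0.65, adjusted p = 0.0481 by the authors' deposited table).

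Of 10 genes known to be regulated by IRF4 or IRF8 in B lineage cells, 7 had a fall and 1 a rise in EBF1-dTAG_C, and all 10 had a fall and 7 a rise in EBF1-dTAG_N. By region, 8 of 87 fell in EBF1-dTAG_C (9.2%), and 24 of 104 fell (23.1%) and 28 rose (26.9%) in EBF1-dTAG_N, against 6.62%, 18.5% and 18.8% of all regions. The genes include known EBF1 targets such as the surrogate light chain genes Igll1 and Vpreb1, and the list was chosen with earlier results of these data known. The best-ranked region of Prdm1, the plasma cell regulator gene, lay 76822 bp outside it and was 6.76-fold lower in EBF1-dTAG_C (adjusted p = 0.0112) and 15.9-fold lower in EBF1-dTAG_N (adjusted p = 1.45e-31) by the authors' deposited table. Ikzf3, which encodes Aiolos, contained a region 7.63-fold lower in EBF1-dTAG_C (adjusted p = 0.00142) and 9.53-fold lower in EBF1-dTAG_N (adjusted p = 1.57e-38) by the authors' deposited table. For Ciita the best-ranked region was a rise in both lines, at different places. Its log2 fold was 0.98 in EBF1-dTAG_C (edgeR adjusted p = 0.0211) and 1.09 in EBF1-dTAG_N (edgeR adjusted p = 9.79e-10). In EBF1-dTAG_N the best-ranked regions of Bcl6 (2.29) and Ikzf1 (1.76) also rose, and those of the other listed genes fell. Genes that respond to interferon had few regions, 11 in EBF1-dTAG_C with 1 fall and 10 in EBF1-dTAG_N with 2 rises. Over all regions, 6.62% fell in EBF1-dTAG_C and 18.8% rose in EBF1-dTAG_N. Of 8 matched genes, 4 had a region in EBF1-dTAG_C, of which 1 (Bst2) had a fall and none a rise, and 5 had a region in EBF1-dTAG_N, of which none had a fall and 2 (Ifi35 and Ifit2) a rise.

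The boundaries of the loci come from the rule, and their values are given for description. The outermost Irf8 region was 75.5 kb past the gene's end, with log2 folds of -0.75 in EBF1-dTAG_C and 0.50 in EBF1-dTAG_N by the authors' deposited table. The closest region to Irf8 that was counted to another gene lay 34.3 kb outside it in EBF1-dTAG_C, nearer to Cox4i1, with 0.20 by the authors' deposited table. In EBF1-dTAG_N it lay 36.1 kb outside, also nearer to Cox4i1, with -1.20 by the authors' deposited table. At Irf4 the closest such region was 19.3 kb outside the gene in EBF1-dTAG_C, nearer to Exoc2, with 0.23 by the authors' deposited table. ATAC-seq gives neither the expression of these genes nor which gene a distal region acts on, and neither was measured here.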

How the data were processed

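A-MuLV pro-B cells of 8 libraries were profiled by ATAC-seq, per the labels. Per the submitters' processing notes the authors used MACS2 2.2.7.1, edgeR 3.32.0, deepTools 3.3.2, Bowtie2 2.3.5.1, SAMtools 1.10 and GRCm38 (mm10), without parameters. Read filters and the Tn5 shift are not stated in the sources used here. The authors deposited 1 peak list per library, with a peak score, a summit fold enrichment (a ratio to the local background), and −log10 of both p-value and q-value. These describe peaks within a list only. The authors also deposited, for each line, a table with log2 fold changes of dTAG-13 over DMSO, log2 CPM abundance, a p-value and its adjusted p-value and an F score per region, and no value per library. Positive folds mean higher after dTAG-13: of regions with peaks in the DMSO lists alone, 92.6% (EBF1-dTAG_C) and 96.7% (EBF1-dTAG_N) had negative folds.

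Repeated entries (8 and 12) were counted once, and the deposited adjusted p-values were recomputed from the deposited p-values. Titles gave each sample its line and replicate, and the treatment labels gave DMSO or dTAG-13. No test was refitted, so p-values of regions are those the authors deposited from edgeR, read at 0.05. Denominator degrees of freedom were solved from F and p. The alternatives were centred folds, the EBF1-dTAG_C degrees of freedom for EBF1-dTAG_N, adjusted p under 0.01, an absolute log2 fold of at least 1, assignment within 20 kb, abundance of at least the median, peaks with −log10 q of at least 5 or 10, a summit inside the region, and leaving out each library. Summit pileups were solved as whole reads from each peak's deposited −log10 p-value and enrichment (tolerance 0.0001), which succeeded for 99.6% to 100% of 2000 peaks per list; the solving was tested on simulated data. They describe single libraries and carry no test, since 2 libraries against 2 allow no exact permutation p below 0.333. Inside 2 EBF1-dTAG_C lists the peak names carry another replicate number than the titles (4 for DMSO replicate 1 and 3 for dTAG-13 replicate 2), and the titles were followed.

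The 4 genes and all gene lists were chosen with earlier results of these data known. Regions were described in full when called in EBF1-dTAG_C, called in EBF1-dTAG_N with an absolute log2 fold of at least 1, within 1 kb of a promoter or gene boundary, or the most abundant of their gene; other regions with values were added after these had been seen. In the list of interferon-stimulated genes, 8 of 10 symbols matched protein-coding genes. A gene listed for the IRF family is not reported here. Python 3.11.15, NumPy 2.4.6, pandas 2.3.3, SciPy 1.17.1 and Matplotlib 3.10.9 were used.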

Additional observations from a re-analysis of the deposited data

How the results depend on the processing

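In EBF1-dTAG_C the 3 falls, all at Irf8, numbered 2 to 4 under the alternatives run, and there were 0 rises under each by edgeR's deposited p (6 of the 54 were higher at an unadjusted p under 0.05, 11.1% against 5.2% of all regions). In EBF1-dTAG_N, 12 regions fell and 12 rose; with an absolute log2 fold of at least 1 there were 7 falls and 1 rise, and with centred folds there were 7 rises. Regions with a lost peak in EBF1-dTAG_C (5) numbered 6 to 10 when 1 library was left out, with the most, 10, without DMSO replicate 1. In EBF1-dTAG_N (7) they numbered 8 to 13, with 13 without DMSO replicate 2, and 4 when only peaks whose −log10 q reached 10 were used; leaving out a library asks for fewer lists, so it can only add regions. Centring ended 5 of the 12 rises and none of the 12 falls in EBF1-dTAG_N, at Irf1 33.2 kb, Irf2 49.8 and 105.3 kb, Irf4 12.2 kb and the Irf8 promoter (adjusted p = 0.413), and it added the fall of the Irf8 region at 11.1 kb in EBF1-dTAG_C (adjusted p = 0.0354). It turned the log2 fold of the Irf4 promoter in EBF1-dTAG_N to -0.0504 (edgeR-based adjusted p = 0.782). The EBF1-dTAG_C degrees of freedom ended 6 of the 24 calls of EBF1-dTAG_N, with adjusted p of 0.0623 to 0.0991, at the Irf8 promoter, the Irf8 region 11.0 kb before the start site, Irf2 105.3 and 125.8 kb, Irf1 33.2 kb and Irf4 12.2 kb. With an overlap of at least 50% of both regions, 41 of the 45 pairs were left. No paired analysis was possible because the deposited tables hold no value per library. Sequencing depth is unknown, and weak regions with a single peak among the 8 lists are limited by it.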
